A study of Arabidopsis thaliana with 62 samples.

Results

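psbA (locus tag ArthCp002) is the plastid gene for D1, a reaction-centre protein of photosystem II. It was chosen by name and is 1 of the 113 plastid genes tested. Its coding region of 1062 bp lies near the start of the TAIR10 plastid numbering and has no intron. The gene is read from the minus strand, so its promoter side lies at the higher coordinates, and a stretch of 1600 bp that ends at position 1700 is described here. Beyond its 3′ end lies trnH (ArthCt088, positions 4 to 76), a histidine tRNA gene. Upstream lies trnK (ArthCt089, positions 1717 to 4347), a lysine tRNA gene whose intron holds matK (ArthCp003, positions 2056 to 3570), the gene of a plastid splicing factor.

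D1 holds, together with D2, the cofactors that carry electrons through photosystem II. It is damaged by light and is constantly replaced, and psbA is among the most strongly transcribed and translated genes of green plastids. Its mRNA is translated by ribosomes at the thylakoid membrane, and the growing D1 chain is inserted into that membrane during translation. The gene is transcribed by the plastid-encoded RNA polymerase, which is guided to promoters by nuclear-encoded sigma factors, SIG2 and SIG6 among them.

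The series measured plastid DNA of Arabidopsis thaliana with an assay named SOLINA in its labels, which parts crosslinked chloroplasts into membrane and stroma. A library holds DNA from 1 of these fractions, read as coverage at every base. Part 1 used chloroplasts isolated from homogenised leaf tissue and then treated with 4% formaldehyde for 4 h, and part 2 used batches of 50 whole seedlings that were treated in the same way before grinding. The design asks how DNA is divided between the fractions in light and darkness and in the mutants.

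The groups of part 1 had 3 libraries per fraction. They were sig2-2 and sig6-1, both sigma factor mutants, as 4-day-old seedlings in continuous light, 14-day-old wild-type plants after 24 h of darkness (Night), 14-day-old wild-type plants taken 2 h into the light period (Day), and wild-type Col0 seedlings, 4 days old, in continuous light. The protocol of part 1 describes 5 g of rosette leaves for all its samples, the seedling samples included. Part 2 had 4-day-old seedlings of sig2-2, chl27, chlm and Col0 with 4 libraries per fraction, except 3 for chlm stroma. CHLM is a methyltransferase and CHL27 a cyclase subunit of chlorophyll synthesis. The genotype field of part 2 reads wild type for every sample, and groups followed the titles. Every mutant is named by a single allele or line, each library pools many plants, and the labels do not say whether replicates were grown separately. P-values therefore measure the spread between these samples, which may be technical. The parts were never compared by a test, because their crosslinking and grinding differed.

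Libraries had a mean depth of 95.4 to 1596 in part 1, and of 299 to 4598 in part 2. Over psbA itself the range was 96.8 to 1711 for part 1 and 330.3 to 5889 for part 2, and no base of the gene in any library was covered less than 12-fold. In part 2 membrane libraries had 299 to 3825, against 1731 to 4598 in stroma libraries, and all but sig2-2 membrane replicate 4 were shallower than every stroma library. The unevenness of coverage, given as the coefficient of variation over windows of 500 bp, moved with fraction and condition. Values for part 1 were 0.255 to 0.904 in membrane and 0.145 to 0.554 in stroma, and for part 2 0.0825 to 0.302 in membrane and 0.111 to 0.450 in stroma. Coverage of psbA is given below relative to the mean of its own library, so a higher value of psbA and a lower value of other regions cannot be told apart. Absolute amounts of DNA per fraction were not analysed here.

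The group mean of psbA was above the library mean in 16 of 18 groups, the exceptions being Day stroma and Col0 stroma of part 2. Over single libraries of part 1 its relative coverage ranged from 0.894 to 1.50 over 30 libraries with a median of 1.19, and in part 2 from 0.912 to 1.28 over 31 libraries with a median of 1.08. Among the 113 genes of its library psbA stood between rank 10 and rank 44 from the top in membrane of part 1 and between rank 37 and rank 98 in stroma. In part 2 it stood between rank 24 and rank 76 in membrane and between rank 22 and rank 88 in stroma.

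The order of the group means in part 1 ran from Col0 membrane (1.50 ± 0.008) through Day membrane (1.32 ± 0.146), sig6-1 membrane (1.22 ± 0.043), Night stroma (1.22 ± 0.017), sig2-2 membrane (1.20 ± 0.104), Col0 stroma (1.16 ± 0.029), sig2-2 stroma (1.15 ± 0.088), Night membrane (1.15 ± 0.125) and sig6-1 stroma (1.14 ± 0.059) to Day stroma (0.982 ± 0.080), each as SD with n = 3. Libraries of neighbouring groups in this order overlapped except at its ends, where Col0 membrane stood above Day membrane and Day stroma below sig6-1 stroma. In part 2 the order ran from sig2-2 stroma (1.16 ± 0.087) through Col0 membrane (1.15 ± 0.066), chlm membrane (1.10 ± 0.085), sig2-2 membrane (1.10 ± 0.076), chl27 membrane (1.08 ± 0.032), chlm stroma (1.08 ± 0.066) and chl27 stroma (1.07 ± 0.080) to Col0 stroma (0.992 ± 0.067), with n = 4 and 3 for chlm stroma. Every pair of neighbours in that order overlapped.

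**Figure D1:**
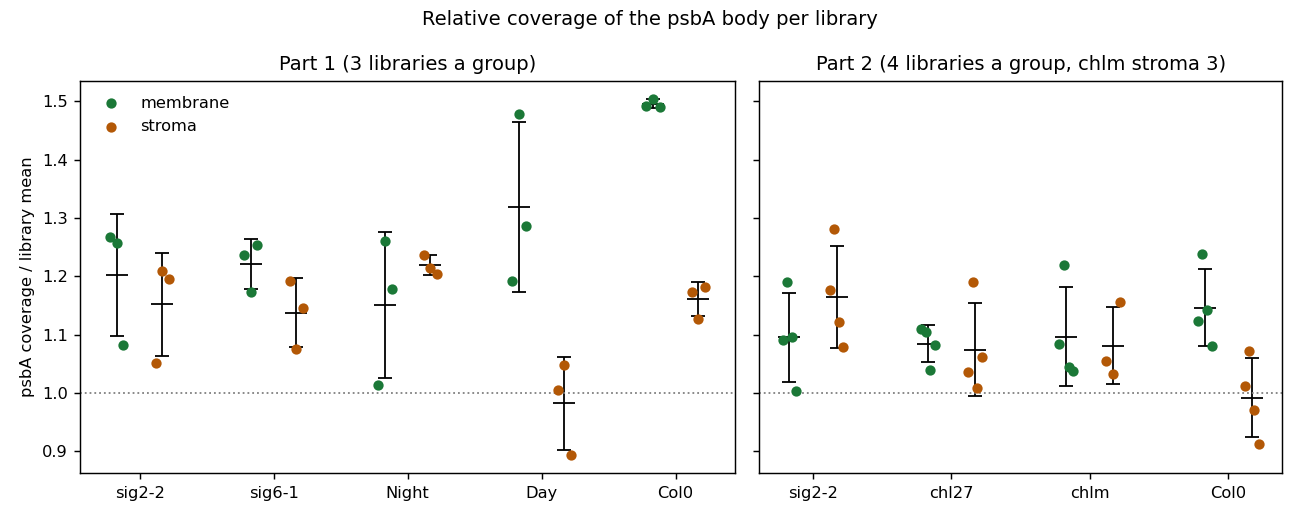
Mean coverage of the psbA coding region divided by the mean of its library, 1 point per library, membrane left of stroma in each condition; bars show mean ± SD and the dotted line the library mean. In part 1 the 3 Col0 membrane libraries lie between 1.49 and 1.50, above all other libraries, and the 3 Day stroma libraries between 0.894 and 1.05.

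The first comparison asked whether psbA was more covered in membrane than in stroma. It was higher in membrane in 3 wild-type groups, namely Day and Col0 of part 1 and Col0 of part 2, by 1.34-fold, 1.29-fold and 1.16-fold. In Night and in the mutants the test was not passed. All ratios are log2 of membrane over stroma, tested with limma across all genes of a part with Benjamini-Hochberg adjustment.

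In Day, relative coverage of psbA was 1.19, 1.48 and 1.29 in the membrane libraries, against 1.01, 1.05 and 0.894 in the stroma libraries. The groups did not overlap, and stroma lay near the library mean. The log2 ratio was 0.42 (SE 0.09, 95% interval 0.24 to 0.61, limma adjusted p 0.000884), the 10th highest of 113 genes, while the median gene stood at -0.21. In this comparison 48.7% of genes were called, 13.3% higher and 35.4% lower, and 65.5% did not overlap.

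For Col0 of part 1, relative coverage of psbA was 1.49, 1.50 and 1.49 in the membrane libraries, against 1.17, 1.13 and 1.18 in the stroma libraries. The membrane libraries were nearly equal to each other and all above stroma. The log2 ratio was 0.37 (SE 0.09, 95% interval 0.18 to 0.55, limma adjusted p 0.00118), the 24th highest, with a median gene of -0.27. Here 72.6% of genes were called, 23% higher and 49.6% lower, and 86.7% did not overlap, so a gap between fractions was common among plastid genes. With libraries scaled to their median window 46 genes were called, 67.4% of them higher, against 82 genes and 31.7%, and psbA stood at 0.66. It stood at 0.55 with the single-copy mean and at 0.61 with the median gene. Coverage was also more uneven in membrane (coefficient of variation 0.629 to 0.734) than in stroma (0.319 to 0.392) of this group. With that unevenness as a covariate the ratio was 0.32 (limma adjusted p 0.024) in Col0 and 0.40 (limma adjusted p 0.0012) in Day.

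For Col0 of part 2, relative coverage of psbA was 1.12, 1.24, 1.14 and 1.08 in the membrane libraries, against 1.01, 1.07, 0.972 and 0.912 in the stroma libraries. The lowest membrane library lay just above the highest stroma library. The log2 ratio was 0.21 (SE 0.07, 95% interval 0.07 to 0.35, limma adjusted p 0.034), the 22nd highest, with a median gene of -0.08. In this comparison 15.9% of genes were called, 10.6% higher, and 31.9% did not overlap. The call was lost when any 1 of 6 of the 8 libraries was left out, with limma adjusted p up to 0.161, and with libraries scaled to their single-copy mean (0.28, limma adjusted p 0.163). With the replicate number as a block, which pairs the fractions in this group, the limma adjusted p was 0.0039.

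In Night, relative coverage of psbA was 1.01, 1.26 and 1.18 in the membrane libraries, against 1.24, 1.22 and 1.20 in the stroma libraries. The stroma libraries lay within the range of the membrane libraries. The log2 ratio was -0.09 (95% interval -0.27 to 0.10, limma adjusted p 0.780), rank 71 of 113. In Night 0% of genes were called by limma and 8.85% did not overlap, and 7 genes had an unadjusted p under 0.05.

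In sig2-2 of part 1, relative coverage of psbA was 1.27, 1.26 and 1.08 in the membrane libraries, against 1.05, 1.21 and 1.20 in the stroma libraries. The fractions overlapped, and the ratio of 0.06 (95% interval -0.13 to 0.25, limma adjusted p 0.550) did not pass, while 71.7% of genes did, 15.9% higher and 55.8% lower, and 45.1% did not overlap. This result depended on the scaling. With libraries scaled to their median window, their single-copy mean or their median gene, the ratio was 0.34, 0.36 and 0.32, and each passed (limma adjusted p 0.0067, 0.0081 and 0.0019).

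In sig6-1, relative coverage of psbA was 1.24, 1.17 and 1.25 in the membrane libraries, against 1.19, 1.08 and 1.15 in the stroma libraries. The highest stroma library reached into the range of membrane. The ratio of 0.10 (95% interval -0.08 to 0.29, limma adjusted p 0.491) did not pass, where 10.6% of genes did, 7.96% higher and 2.65% lower, and 37.2% did not overlap.

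In part 2, sig2-2 had 1.09, 1.19, 1.10 and 1.00 in the membrane libraries, against 1.18, 1.28, 1.12 and 1.08 in the stroma libraries, relative to the library mean. The fractions overlapped, and the ratio of -0.09 (95% interval -0.23 to 0.05, limma adjusted p 0.584) did not pass. In that comparison 0% of genes were called, with 14 at an unadjusted p under 0.05.

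In chl27, psbA stood at 1.11, 1.11, 1.04 and 1.08 in the membrane libraries, against 1.04, 1.19, 1.01 and 1.06 in the stroma libraries. In chlm it stood at 1.08, 1.22, 1.04 and 1.04 in the membrane libraries, against 1.06, 1.03 and 1.16 in the 3 stroma libraries. Fractions overlapped in both mutants. The ratios were 0.02 in chl27 (95% interval -0.12 to 0.16, limma adjusted p 0.949) and 0.02 in chlm (95% interval -0.13 to 0.17, limma adjusted p 0.953). In chl27 0% of genes were called, with 16 at an unadjusted p under 0.05, and in chlm 7.96% were called.

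Measured against the median gene, which does not depend on the scaling, psbA stood higher by 0.31 in sig2-2, 0.19 in sig6-1, 0.63 in Day and 0.64 in Col0 of part 1, and by -0.03 in Night. In part 2 the same difference was -0.07 in sig2-2, 0.03 in chl27, 0.05 in chlm and 0.29 in Col0. Scaling to the median gene moved the median of all genes by 0.26 in sig2-2, 0.11 in sig6-1, 0.09 in Night, 0.20 in Day and 0.24 in Col0 of part 1, and by at most 0.05 in part 2.

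**Figure D2:**
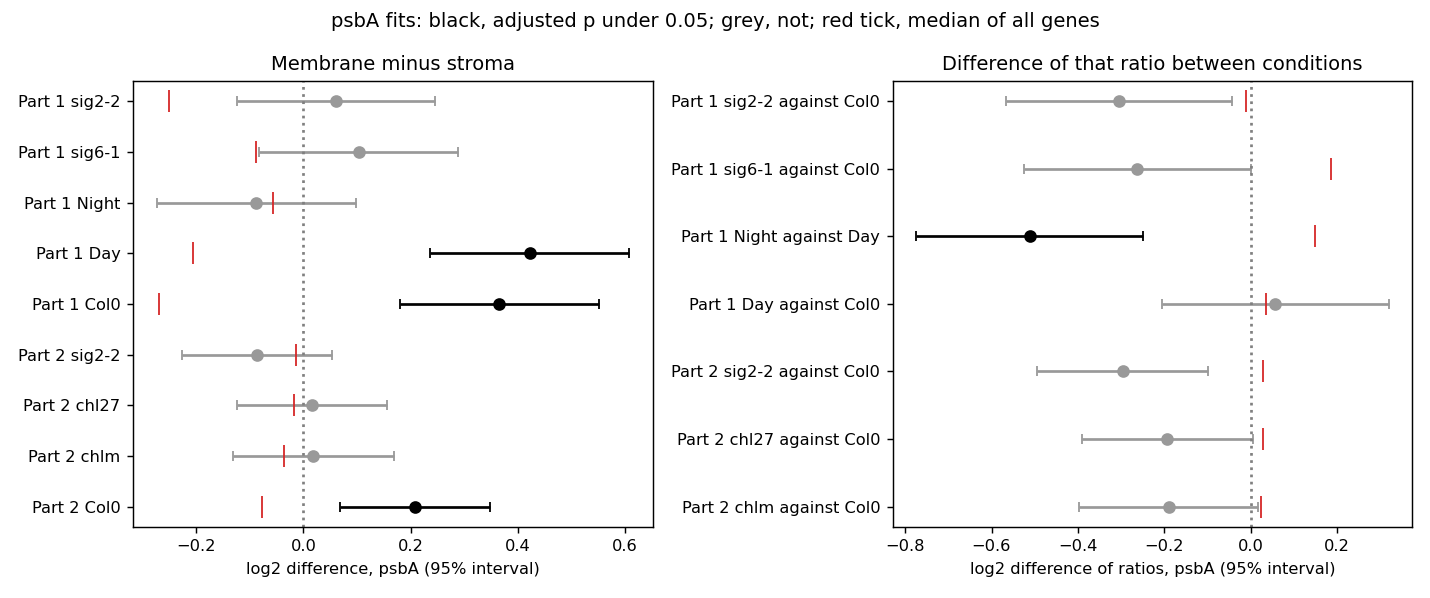
limma estimates for psbA with 95% intervals. Left: log2 of membrane over stroma in each condition; right: the difference of that ratio between conditions; black points have an adjusted p under 0.05 and red ticks mark the median of all 113 genes. Day and Col0 of part 1 and Col0 of part 2 are black on the left, and the difference between Night and Day is black on the right.

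The second comparison asked whether the division between fractions differed between conditions. The ratio of psbA was lower in Night than in Day by 0.51 on the log2 scale (difference -0.51, SE 0.13, 95% interval -0.77 to -0.25, limma adjusted p 0.024). Of all genes, 7.96% were called in this comparison, 7.08% lower, and the median gene stood at 0.15. The call was lost without Night membrane replicate 3, Night stroma replicate 1, Day membrane replicate 2 or Day stroma replicate 3 (limma adjusted p 0.068 to 0.099), and with only the groups compared in the fit (limma adjusted p 0.059). Among the groups of part 1, coverage was most even in Day stroma, with a coefficient of variation of 0.145 to 0.148, against 0.287 to 0.413 in Night stroma. With unevenness as a covariate the difference was -0.49 (limma adjusted p 0.0063).

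Within stroma, psbA was higher in Night than in Day, at 1.22 ± 0.017 in Night and 0.982 ± 0.080 in Day (SD, n = 3 each). The difference was 0.31 on the log2 scale (SE 0.09, limma adjusted p 0.0058) and the libraries did not overlap. With libraries scaled to their single-copy mean it was 0.52. Such gaps were frequent there, with 59.3% of genes called and 83.2% without overlap. Within membrane, psbA averaged 1.15 ± 0.125 in Night and 1.32 ± 0.146 in Day. The libraries overlapped and the difference of -0.20 (SE 0.09) did not pass (limma adjusted p 0.119), except with libraries scaled to their median gene (-0.28, limma adjusted p 0.0077). In that comparison 18.6% of genes were called, 15% higher and 3.54% lower, and 25.7% did not overlap.

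In part 1 the ratio of psbA in the sigma factor mutants lay below that of Col0 by amounts that did not pass the test. The difference was -0.30 for sig2-2 (95% interval -0.57 to -0.04, limma adjusted p 0.200) and -0.26 for sig6-1 (95% interval -0.53 to 0.00, limma adjusted p 0.175). Of all genes, 4.42% were called for sig2-2 and 1.77% for sig6-1. The sig6-1 difference passed with libraries scaled to the median window (-0.43, limma adjusted p 0.044) or to the median gene (-0.39, limma adjusted p 0.019), and with only the groups compared in the fit (limma adjusted p 0.020).

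Within membrane of part 1, psbA was lower in both sigma factor mutants than in Col0. The mean was 1.20 ± 0.104 in sig2-2 and 1.50 ± 0.008 in Col0, a difference of -0.32 (SE 0.09, limma adjusted p 0.021). For sig6-1 the mean was 1.22 ± 0.043, with a difference of -0.29 from Col0 (SE 0.09, limma adjusted p 0.038). No mutant library reached the lowest Col0 library in either case. In each of the 2 comparisons 10.6% of genes were called, for sig6-1 7.96% lower and 2.65% higher, and 20.4% for sig2-2 and 39.8% for sig6-1 did not overlap. Both comparisons share the Col0 membrane libraries. The sig2-2 call was lost without sig2-2 membrane replicate 3 (limma adjusted p 0.157) or any 1 of the Col0 libraries, and under every other scaling tried. The sig6-1 call was lost when any 1 of its 6 libraries was left out (limma adjusted p 0.051 to 0.191).

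Within stroma of part 1 the differences from Col0 were small. They were -0.01 for sig2-2 (95% interval -0.20 to 0.17, limma adjusted p 0.961) and -0.03 for sig6-1 (95% interval -0.22 to 0.16, limma adjusted p 0.824). Both changed sign under the other scalings, to values of 0.03 to 0.11. In both comparisons 0% of genes were called, and 13.3% for sig2-2 and 34.5% for sig6-1 did not overlap. Genes at an unadjusted p under 0.05 numbered 4 for sig2-2 and 16 for sig6-1.

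In part 2 the ratio of psbA differed from that of Col0 by -0.30 for sig2-2 (95% interval -0.49 to -0.10, limma adjusted p 0.105). For chl27 the difference was -0.19 (95% interval -0.39 to 0.01, limma adjusted p 0.466) and for chlm -0.19 (95% interval -0.40 to 0.02, limma adjusted p 0.751). None passed, and 0.885% of genes did for sig2-2. For chl27 and chlm 0% of genes were called, with 5 and 0 genes at an unadjusted p under 0.05. With unevenness as a covariate the sig2-2 difference was -0.22 and passed (limma adjusted p 0.012), as it did without sig2-2 stroma replicate 4 (-0.33, limma adjusted p 0.041). It also passed with the replicate number within each condition as a block (-0.30, limma adjusted p 0.0099), although 1 of the 4 sig2-2 pairs of fractions missed the bar for pairing.

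Within stroma of part 2, psbA was higher in sig2-2 than in Col0, at 1.16 ± 0.087 in sig2-2 and 0.992 ± 0.067 in Col0 (SD, n = 4 each). The difference was 0.23 (SE 0.07, limma adjusted p 0.020), and the lowest sig2-2 library, at 1.08, lay just above the highest Col0 library, at 1.07. Of all genes, 19.5% were called and 16.8% did not overlap. It did not pass when replicate 2 of sig2-2 stroma was left out (limma adjusted p 0.130), nor without Col0 stroma replicate 3 (0.056) or Col0 stroma replicate 4 (0.094), nor with only the groups compared in the fit (0.118). The sig2-2 stroma libraries had coefficients of variation of 0.111 to 0.450, against 0.131 to 0.182 in Col0, and with unevenness as a covariate the difference was 0.15 (limma adjusted p 0.0087). Within membrane of part 2 psbA in sig2-2 differed from Col0 by -0.07 (limma adjusted p 0.997), and 0% of genes were called, with 4 at an unadjusted p under 0.05. The within-fraction differences for chl27 and chlm were -0.08 and -0.07 in membrane and 0.11 and 0.12 in stroma, and none passed (limma adjusted p 0.678 to 0.991).

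Day and Col0 of part 1 are both wild type in light, but they differ in age, tissue and growth medium. The ratio of psbA differed between them by 0.06 (95% interval -0.21 to 0.32, limma adjusted p 0.906), where 9.73% of genes were called. Both fractions of Day were lower than those of Col0. Within membrane the difference was -0.19 (limma adjusted p 0.065), which passed under the other scalings tried at -0.27 to -0.44, and within stroma it was -0.24 (limma adjusted p 0.024). The stroma call was lost without Day stroma replicate 3 (limma adjusted p 0.128), Col0 stroma replicate 1 (0.052) or Col0 stroma replicate 3 (0.065). It was -0.50 with the single-copy mean, -0.35 with the median window and -0.39 with the median over positions. Libraries did not overlap in either fraction, as for 85.8% of genes in membrane and 80.5% in stroma. Genes called made up 66.4% in membrane and 62.8% in stroma.

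The profile along the gene was read as a running mean of 25 bp over the group means. Each of the 18 groups had its minimum of the whole stretch between positions 221 and 235, between psbA and trnH on the 3′ side. There the group means were 0.004 to 0.224 of the library mean. Inside the coding region the lowest point lay at positions 493 to 495 in 14 of the groups, with 0.171 of the library mean in sig6-1 stroma and 0.832 in chl27 membrane as its extremes. The body maximum was 2.27 in Col0 membrane of part 1, at position 987, and 1.17 in Day stroma, the lowest of all groups. At the start codon the group means were 1.01 to 1.67, and upstream of it they fell to a minimum of 0.197 to 0.948 at positions 1536 to 1641.

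The body minimum lay within 5 bp of the same position in membrane and stroma in 7 of 9 conditions, while the body maximum lay apart in 8 of 9. In Col0 of part 1 the maximum was at position 987 in membrane and at 418 in stroma. The span from minimum to maximum was narrower in Day, in Night and in every group of part 2 than in the 4-day groups of part 1. Night ran between 0.698 and 1.67 in membrane and between 0.576 and 1.72 in stroma. In Day the body stayed between 1.14 and 1.55 in membrane and between 0.906 and 1.17 in stroma. Col0 of part 1 ran between 0.518 and 2.27 in membrane and between 0.252 and 1.88 in stroma. Col0 of part 2 ran between 0.787 and 1.40 in membrane and between 0.724 and 1.23 in stroma. Coverage over the whole genome was uneven in the 4-day groups of part 1 too, with group means of the coefficient of variation of 0.354 to 0.779, against 0.121 to 0.371 in all other groups. The part of that unevenness in the profile was not tested.

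The middle of the gene carried most coverage in Col0 membrane of part 1. With the coding region divided into 3 equal lengths, the 3 libraries had 1.40, 1.37 and 1.40 in the 5′ length, 1.77, 1.86 and 1.76 in the middle and 1.31, 1.29 and 1.30 in the 3′ length. Col0 stroma had 1.05, 1.03 and 1.14 in the 5′ length, 1.30, 1.25 and 1.24 in the middle and 1.17, 1.10 and 1.16 in the 3′ length. Membrane exceeded stroma in all 3 lengths without overlap. In Day membrane the middle was level with its flanks, at 1.22, 1.45 and 1.27, against 1.17, 1.50 and 1.33 in the 5′ length.

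**Figure D3:**
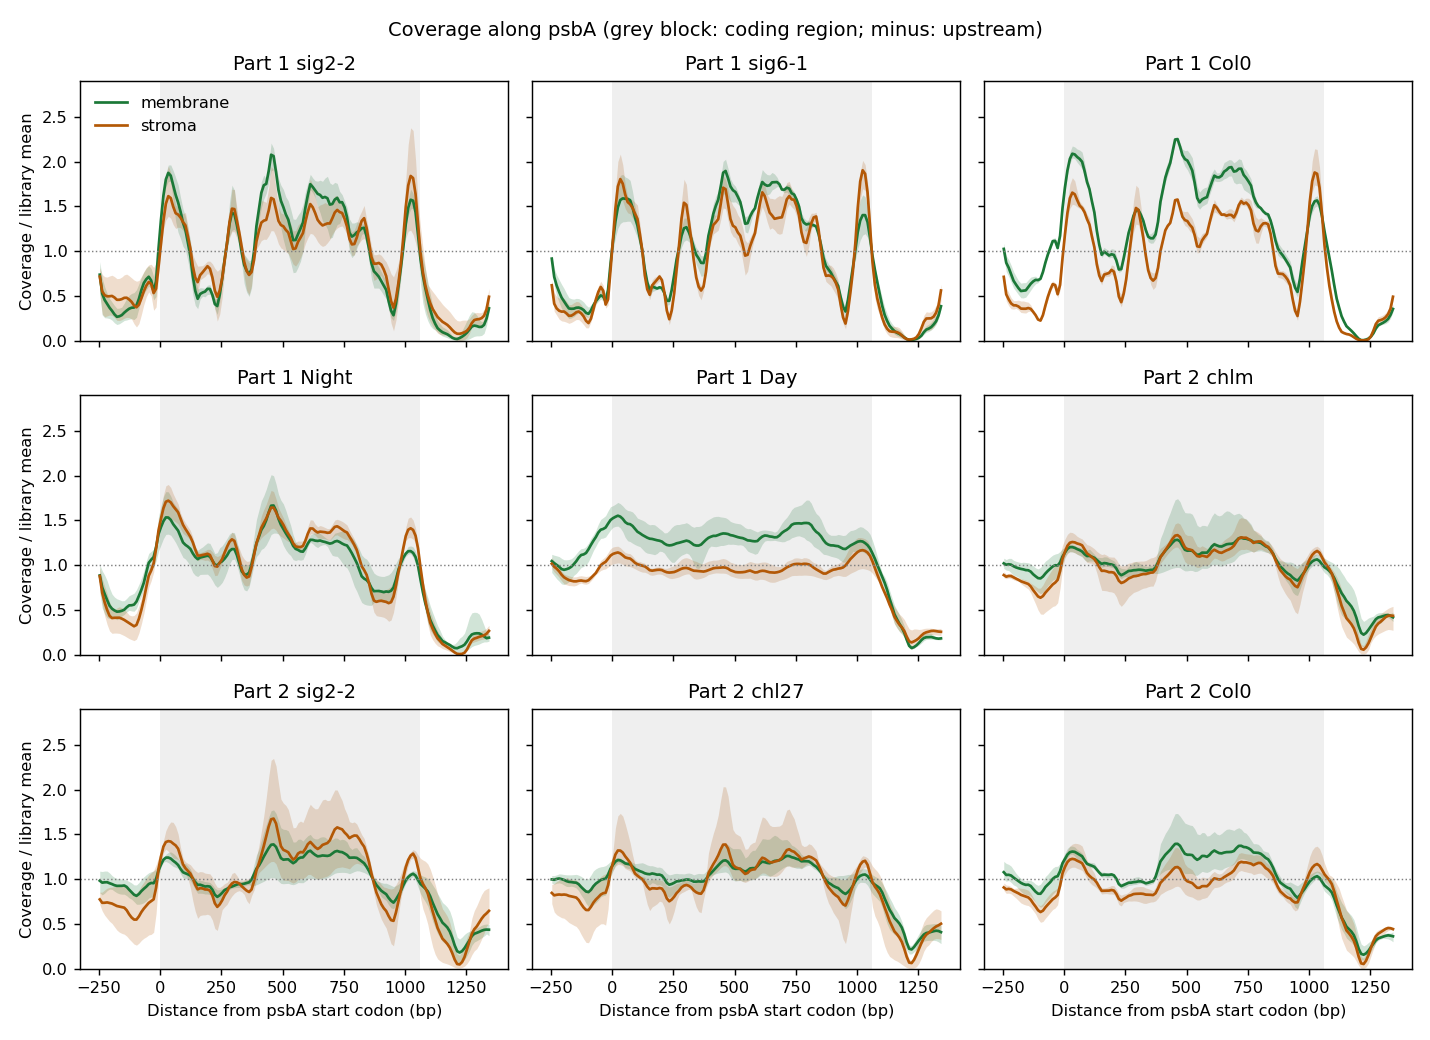
Coverage divided by the library mean (25-bp running mean) against the distance from the psbA start codon in bp; negative distances lie upstream, lines are group means, bands the lowest and highest library, and the grey block the coding region. The membrane line lies above stroma across the gene in Day and over most of it in Col0 of part 1, and the dips are deepest in the 4-day groups of part 1.

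In bins of 100 bp, the higher membrane level of Col0 in part 1 covered most of the region and went on upstream of the start codon. Of the 16 bins, 10 passed as higher and 0 as lower in membrane (limma, Benjamini-Hochberg over 1295 bins of the genome), where 12.4% of all bins were higher. Neighbouring bins share fragments and are not independent, so here and below the bins of the region are not separate results. The highest ratio was 1.11 (SE 0.28, limma adjusted p 0.0024), in the bin from 1501 to 1600 upstream of the gene. There coverage was 0.733 ± 0.027 in membrane and 0.340 ± 0.015 in stroma (SD, n = 3 each). The lowest was -0.30 in the 3′-most bin, which ends at position 200 next to trnH (limma adjusted p 0.567).

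In Day, 9 bins passed as higher and 0 as lower, where 8.8% of all bins were higher. They formed 1 run from position 601 to position 1500, the upstream edge of the body included. The highest ratio was 0.53 (limma adjusted p 0.0065) from 601 to 700, with 1.45 ± 0.201 in membrane and 0.998 ± 0.10 in stroma. The lowest was -0.44 in the 3′-most bin (limma adjusted p 0.461). Without Day membrane replicate 2 the count was 5, and without Day stroma replicate 3 it was 4.

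In sig2-2 of part 1, 1 bin passed as higher, from 1401 to 1500 (0.22, limma adjusted p 0.047), and 1 as lower, from 1201 to 1300 (-0.46, limma adjusted p 0.0060). Of all bins 8.19% were higher and 52.4% lower there. It came to 0 bins without stroma replicate 1 of sig2-2, 1 without membrane replicate 1, 5 without membrane replicate 3 and 6 without stroma replicate 3. In sig6-1 0 bins passed with limma, where 14.1% of all bins did, with 4 at an unadjusted p under 0.05, and 1 passed with the replicate block, which pairs the fractions there. The highest ratio in sig6-1 was 0.58 from 1601 to 1700 and the lowest -0.66 in the 3′-most bin. In Night 0 bins passed, where 0.386% of all bins did, and 1 bin had an unadjusted p under 0.05. Its ratios ran from -0.20 (601 to 700) to 1.03 (201 to 300).

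In part 2, 0 of the 16 bins passed with limma in any condition. Of all bins 1.08% passed in sig2-2, 0.541% in chl27, 2.16% in chlm and 5.25% in Col0, so few were called anywhere. At an unadjusted p under 0.05 there were 3 in sig2-2, 1 in chl27, 0 in chlm and 5 in Col0. With the replicate block, 6 bins passed in Col0, and the share of all bins in that fit is not given here. The highest ratio lay in the bin from 201 to 300 in all 4 conditions, at 1.29 in sig2-2, 1.08 in chl27, 0.98 in chlm and 0.51 in Col0, and none passed (limma adjusted p 0.242 to 0.683). This bin holds the minimum of the profile, so both its values are low.

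**Figure D4:**
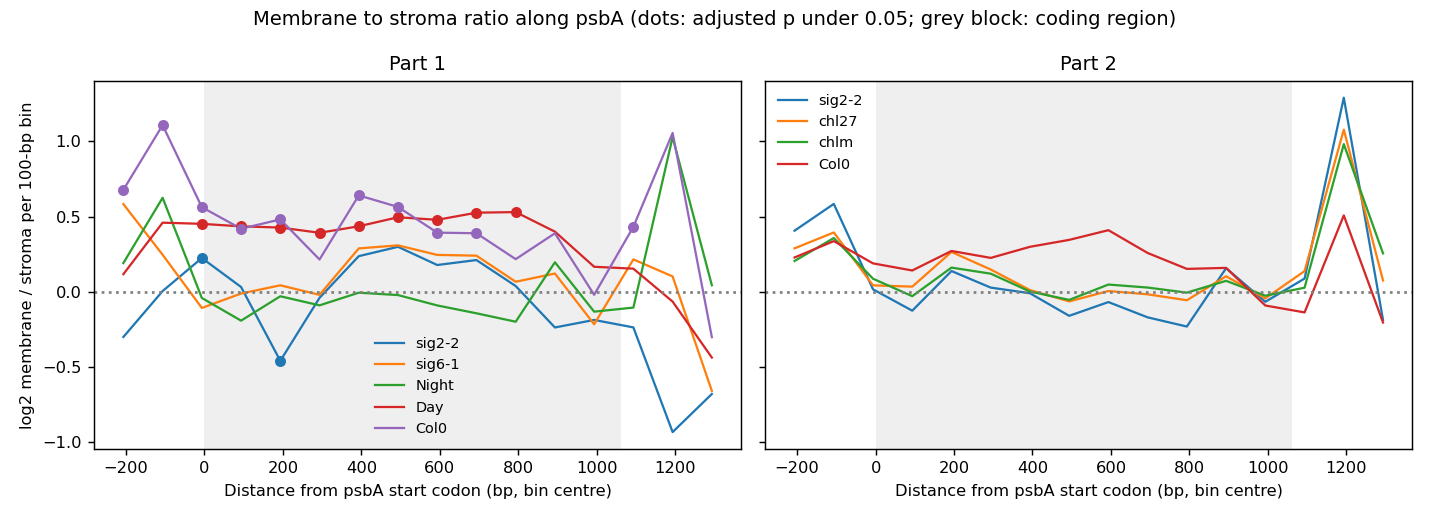
log2 of membrane over stroma in bins of 100 bp against the distance of the bin centre from the psbA start codon; dots mark bins with a limma adjusted p under 0.05 and the grey block the coding region. Dots are found on the Col0, Day and sig2-2 lines of part 1, with 10, 9 and 2 bins, and on no line of part 2.

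The upstream window of 250 bp before the start codon was compared with the body of the gene within each library, which is free of any scaling. In Col0 of part 1 the ratio of window to body was 0.548, 0.572 and 0.521 in membrane, against 0.412, 0.373 and 0.360 in stroma. All membrane libraries were higher. The difference on the log2 scale was 0.52 (exact two-sided permutation test, p = 0.1, the smallest that 3 against 3 libraries allow; 0.45 adjusted over 9 conditions). In the other conditions the fractions overlapped. The mean ratio was 0.396 in membrane and 0.459 in stroma of sig2-2, and 0.382 in membrane and 0.335 in stroma of sig6-1. It was 0.628 in membrane and 0.490 in stroma of Night, and 0.881 in membrane and 0.932 in stroma of Day, where upstream and body were nearly level. In part 2 the membrane means were 0.853 in sig2-2, 0.894 in chl27, 0.882 in chlm and 0.855 in Col0. The stroma means there were 0.622 in sig2-2, 0.758 in chl27, 0.740 in chlm and 0.814 in Col0, with overlap in each condition (exact permutation p 0.171 to 0.600).

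The downstream window of 250 bp was covered at 0.108 to 0.664 of the body over all libraries. In Day it was lower in membrane, with 0.327, 0.294 and 0.358 in membrane, against 0.385, 0.371 and 0.542 in stroma (log2 difference -0.39, exact two-sided permutation p = 0.1, adjusted 0.45). Without Day stroma replicate 3 the difference was -0.22. For Col0 of part 1 it was 0.187 ± 0.004 in membrane and 0.165 ± 0.011 in stroma (log2 difference 0.19, exact two-sided permutation p = 0.1, adjusted 0.45). That difference was 0.55 with medians over positions and 0.38 with windows of 150 bp. The libraries did not overlap in these 2 groups and overlapped in the other 7.

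The ratio of psbA to psaA, a reaction-centre gene of photosystem I (ArthCp022), was higher in membrane than in stroma in several groups. Col0 of part 1 had ratios of 1.42, 1.43 and 1.48 in membrane, against 0.953, 0.972 and 0.984 in stroma. This gap was the widest of the 9 conditions, with a log2 difference of 0.57 (exact two-sided permutation p = 0.1, the smallest possible). Libraries did not overlap in Day either, with 1.10 ± 0.063 in membrane and 0.939 ± 0.033 in stroma (0.23, p = 0.1 in the exact permutation test), nor in sig2-2 of part 1, with 1.15 ± 0.084 in membrane and 1.01 ± 0.034 in stroma (0.18, exact permutation p = 0.1). In sig6-1 and Night the fractions overlapped, with differences of 0.04 and 0.05. In the fit over all genes psaA itself had a membrane to stroma ratio of -0.21 in Col0, -0.12 in sig2-2 and 0.19 in Day. Those of psbA were 0.37, 0.06 and 0.42, and psaA was not called in any of these groups.

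In Col0 of part 2 the ratio of psbA to psaA was 1.15, 1.11, 1.11 and 1.09 in membrane, against 0.956, 1.00, 0.914 and 0.936 in stroma. All 4 membrane libraries were higher, with a log2 difference of 0.23 (exact two-sided permutation p = 0.0286, the smallest that 4 against 4 allow; 0.150 adjusted over 9 conditions). With the replicate number as a block the exact permutation p was 0.125, the smallest that 4 pairs allow. The differences were 0.11 in chl27 and 0.14 in chlm (exact permutation p = 0.0571 each, adjusted 0.150), without overlap in chlm, and 0.02 in sig2-2 (exact permutation p = 0.771). In the fit over all genes psaA itself stood at -0.10 in chl27 and -0.12 in chlm, against 0.02 for psbA in each. For Col0 psaA stood at -0.02 and psbA at 0.21, and for sig2-2 psaA stood at -0.10 and psbA at -0.09. No psaA ratio of part 2 was called.

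The ratio of psbA to rbcL (ArthCp030), the gene for the large subunit of Rubisco, moved in opposite directions among the groups of part 1. It was lower in membrane in both sigma factor mutants, at 0.761 ± 0.073 in membrane and 0.895 ± 0.063 in stroma of sig2-2, and at 0.742 ± 0.018 in membrane and 0.861 ± 0.035 in stroma of sig6-1. It was higher in membrane in Day, at 1.13 ± 0.033 in membrane and 0.981 ± 0.073 in stroma, and in Col0, at 0.978 ± 0.011 in membrane and 0.851 ± 0.007 in stroma. In each of these 4 groups the 3 membrane libraries did not overlap the 3 stroma libraries (exact two-sided permutation p = 0.1, adjusted 0.225). The log2 differences were -0.24 in sig2-2, -0.21 in sig6-1, 0.21 in Day and 0.20 in Col0. In Night the difference was 0.01 with overlap, and in part 2 the 4 differences were 0.02 to 0.08 with overlap (exact permutation p 0.429 to 0.857). In the fit over all genes rbcL itself had a membrane to stroma ratio of 0.30 in sig2-2 (limma adjusted p 0.027) and 0.32 in sig6-1 (limma adjusted p 0.075), above those of psbA.

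**Figure D5:**
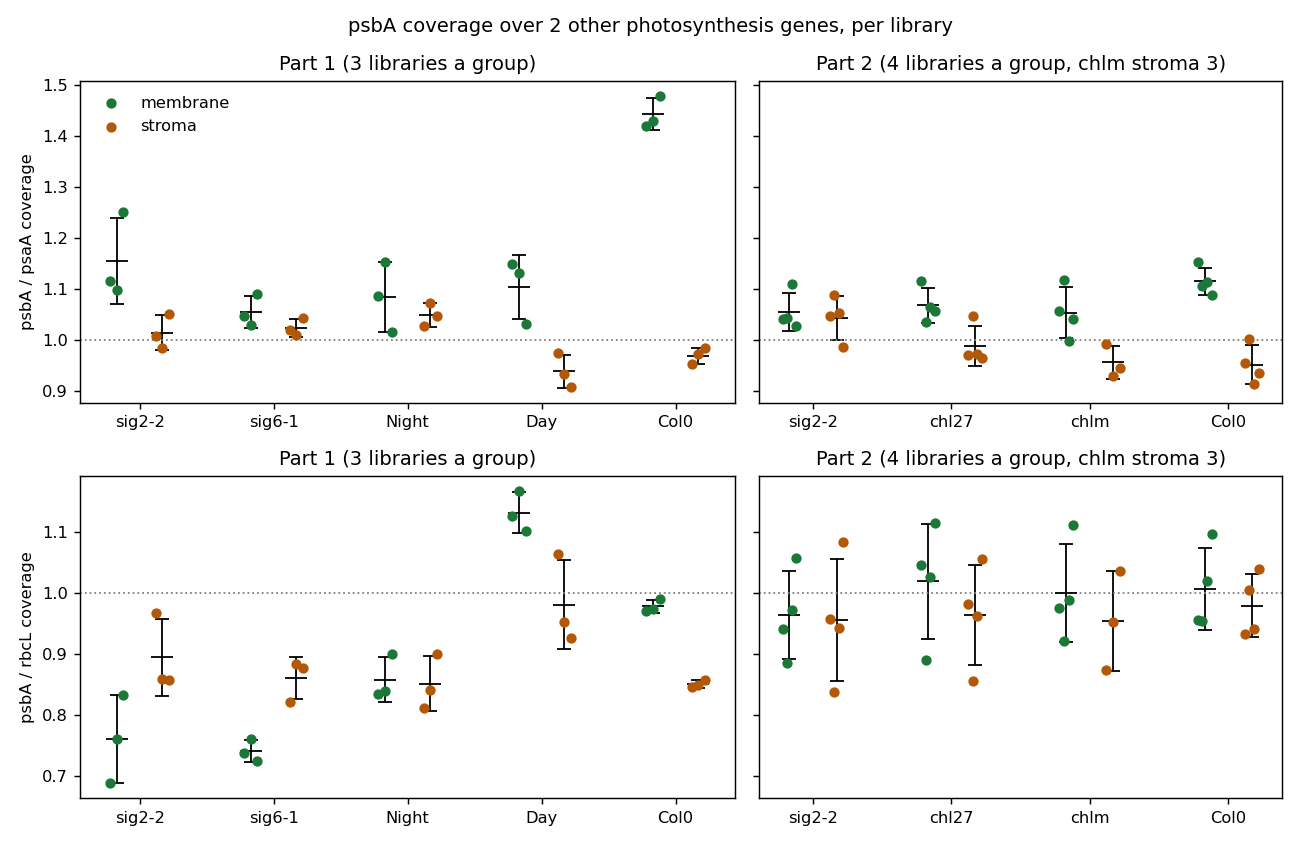
Coverage of psbA divided by that of psaA (top) and of rbcL (bottom) within each library, membrane left of stroma, with mean ± SD. For psaA the Col0 membrane libraries of part 1 lie between 1.42 and 1.48 and stand apart; for rbcL the order of the fractions in sig2-2 and sig6-1 of part 1 is opposite to that in Day and Col0.

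In the groups where psbA was called, the other plastid genes of photosystem II had lower membrane to stroma ratios. Of the 14 others, 0 were higher and 6 lower in membrane in Col0 of part 1 (psbK, psbJ, psbL, psbE, psbN and psbH), and the highest of them, psbZ, stood at -0.11 (limma adjusted p 0.523). Of all genes 23% were higher and 49.6% lower there. The median of the 14 was -0.23, close to that of all genes at -0.27. In Day, psbD and psbC, which encode D2 and the antenna protein CP43 and share an operon, were higher in membrane (0.26 and 0.36, limma adjusted p 0.014 and 0.0063), and psbK, psbJ and psbF were lower, where 13.3% of all genes were higher and 35.4% lower. In Day and in Col0 of each part, 0 of the 14 had a ratio above that of psbA. These groups were picked because psbA was high in them, which favours such a count. The count was 1 in sig2-2 and 1 in sig6-1 of part 1, and 7 in Night. In part 2 it was 9 in sig2-2, 4 in chl27 and 3 in chlm. In sig2-2 of part 1, 0 were higher and 7 lower, where 15.9% of all genes were higher and 55.8% lower. In sig6-1 and Night 0 were called by limma, with 1 each at an unadjusted p under 0.05, where 10.6% and 0% of all genes were called. In part 2, 0 of the 14 were called by limma in any condition, with 2 in sig2-2, 4 in chl27, 2 in chlm and 0 in Col0 at an unadjusted p under 0.05. Of all genes 0% were called in sig2-2 and chl27, 7.96% in chlm and 15.9% in Col0.

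Between Night and Day, psbC was the only one of the 14 whose membrane to stroma ratio was called, at -0.47 (limma adjusted p 0.042), beside -0.51 for psbA and 7.96% of all genes called. psbD stood at -0.33 (limma adjusted p 0.079). Between the sigma factor mutants and Col0, 0 of the 14 were called for the ratio in either part, with 2 each for sig2-2 and sig6-1 of part 1 and 0 for sig2-2 of part 2 at an unadjusted p under 0.05. Few genes were called there at all, with 4.42% for sig2-2 and 1.77% for sig6-1 of part 1, and 0.885% for sig2-2 of part 2.

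In Day and Col0 of part 1, where psbA was called, no neighbour of psbA on the map was called as higher in membrane. In Col0 of part 1, trnH had a membrane to stroma ratio of -0.93 (SE 0.33, limma adjusted p 0.017), trnK of 0.03 (limma adjusted p 0.803) and matK of -0.05 (limma adjusted p 0.736). Of all genes 49.6% were lower in that comparison. The trnH gene is 73 bp long and lies at the very start of the numbering. Its coverage was 0.079 to 0.961 of the library mean over the libraries of part 1. In Day trnH, trnK and matK stood at -0.18, -0.09 and -0.12, and none passed. In sig2-2 of part 1, trnK and matK were lower in membrane, at -0.40 and -0.55 (limma adjusted p 0.0024 and 0.0015). There 55.8% of all genes were lower, and trnH was not called. No neighbour was called in sig6-1, in Night or in part 2. Because matK lies within trnK, the values of these genes are not independent. Within membrane, trnK and matK were lower in sig2-2 of part 1 than in Col0, by -0.43 and -0.49 (limma adjusted p 0.0072 and 0.012), a difference of the same sign as that of psbA.

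The genes whose group means varied most like those of psbA were ribosomal RNA and transfer RNA genes of both repeat and single-copy regions. Ranked by the smaller of the Pearson correlations over the 10 groups of part 1 and the 8 groups of part 2, they were the rRNA entry ArthCr091 (0.77 and 0.90), trnI (ArthCt107, 0.74 and 0.94), trnF (ArthCt102, 0.73 and 0.94), trnS (ArthCt117, 0.85 and 0.73) and rrn23S (ArthCr087, 0.72 and 0.92). All points share libraries, depth and the scaling to the library mean, so these correlations describe the profiles and carry no test. rbcL came 17th in that order (0.57 and 0.88) and psbC 27th (0.47 and 0.35).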

How the data were processed

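The deposited values are signal, the coverage at each plastid base with a column for every library, per the file headers; the authors' processing notes name Trim Galore 0.4.1, Bowtie2 2.2.8.9, bedtools 2.25.0 and the build TAIR10, with no role or order. Duplicate handling and placement of repeat reads are not given in the sources used here, and read length is not either, so depth gives no count of fragments and replicate spread is the only error. Of 62 library columns 61 were used and 1 was not, since the column of chlm stroma replicate 1 of part 2 holds the running position. Position labels of part 2 run 1 below the row count, which was used. Gene names and positions came from a RefSeq table of assembly TAIR10.1. The mirror axis of the inverted repeat fell at 238649 in that table and in the coverage of both parts, so the coordinates match. Genes of the second repeat copy with a partner in the first were dropped, ArthCr091 has none in the table and was kept, and this left 113 genes and 1295 bins of 100 bp.

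Mean coverage per gene or bin was divided by the library mean and taken as log2 with no pseudocount, and tested with limma 3.58.1 in R 4.3.3 (1 mean per group, all libraries of a part, two-sided, Benjamini-Hochberg over all genes or bins, threshold 0.05). For ratios within a library the fraction labels were permuted exactly (two-sided), adjusted over 9 conditions. Tables and figures used Python 3.11.15, numpy 2.4.6, pandas 2.3.3 and matplotlib 3.10.9. The fit was tested on simulated data with independent noise and shifts larger than the differences of the psbA body. That test does not cover effects of the size reported here. psbA, the gene lists and the tests were chosen with earlier results of these data known. Named genes are psbA, its partners rbcL and psaA, its neighbours, 14 other photosystem II genes by count and extremes, and the 5 genes most like psbA in group means; psbC, psbD and the ranks of rbcL and psbC were added after their values were seen. Replicate numbers were taken to pair fractions where every same-numbered pair deviated together with a correlation over 0.1 across genes: sig6-1 and Day of part 1 and chl27, chlm and Col0 of part 2. By the same bar the numbers pair conditions within both fractions for Night and Day of part 1 and for sig2-2 or chlm and Col0 of part 2, and within membrane for sig6-1 and Col0 of part 1. Alternatives were 3 other scalings, the median over positions, other window and bin sizes, longer genes only, fits of the compared groups alone, the replicate block, unevenness as a covariate, a trimmed body and leaving out each library; scaling to the median gene and the covariate were chosen after seeing the data.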

Additional observations from a re-analysis of the deposited data

Results flagged for a closer look

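In chl27 stroma of part 2 the ratio of psbA to psaA was 1.05 in replicate 2, while the other 3 libraries lay between 0.965 and 0.972, and the gap to the nearest of them took 0.907 of the whole range. This library was also the most uneven of its group, with a coefficient of variation of 0.381, against 0.111 to 0.142 in the others, and its part in the value was not tested. Of 35 sets of 4 values checked in this way, 5 measures in each of 7 groups, 1 stood out, where chance gives about 1 in 20. Without that library the exact two-sided permutation test of chl27 membrane against stroma reached p = 0.0286, the smallest the design allows, against 0.0571 with all libraries. The library was picked by its value in this same ratio, so the lower p follows from that choice and is no added evidence. With all libraries, the membrane to stroma ratio in the fit over all genes was 0.02 for psbA and -0.10 for psaA.

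The membrane to stroma ratio of psbA differed between Night and Day by -0.51 on the log2 scale, at -0.09 in Night and 0.42 in Day, by a test of the difference itself (limma adjusted p 0.024). The call was lost when any 1 of 4 of the 12 libraries was left out (limma adjusted p up to 0.099). It was also lost with only the groups compared in the fit (limma adjusted p 0.059).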

How the results depend on the processing

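Over 75 results, 847 alternative values kept direction and call, 41 lost a call, 17 gained one, 38 changed sign and 18 were counts that moved by over 1.5 times. Among the 847 are ratios within a library of part 1, whose exact permutation p cannot go below 0.1. At the threshold of 0.05 they had no call to lose or gain, and only their direction was checked. Their upstream ratio in sig2-2, for example, changed sign with windows of 150 bp (0.052). The 847 therefore overstates how stable the calls were. The membrane to stroma calls of psbA in Day and Col0 of part 1 held under every alternative run. The causes of the changes below were not tested. All p-values named here are limma adjusted p, except where an exact test is named.

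The membrane to stroma ratio of psbA gained a call in sig2-2 of part 1 with libraries scaled to the median window (0.34), the single-copy mean (0.36) or the median gene (0.32). It changed sign in Night with the median gene (0.003), in chl27 with the single-copy mean (-0.024) or the median over positions (-0.00177), and in chlm with that median (-0.017). For Col0 of part 2 it lost its call with the median window (0.26, p 0.0502), the single-copy mean (0.28) and the median over positions (0.24, p 0.0504). The difference of ratios for sig6-1 gained a call with the median window (-0.43), the median gene (-0.39) and the compared groups alone (-0.26). That of Night against Day lost it with the compared groups alone (-0.51), and that of Day against Col0 changed sign with the median window (-0.094). For sig2-2 of part 2 it gained a call with unevenness as a covariate (-0.22).

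Within membrane of part 1, the sig2-2 difference lost its call with the median window (-0.27), the single-copy mean (-0.16), the median over positions (-0.29), the median gene (-0.20) and the compared groups alone (-0.32). The sig6-1 difference lost it with the single-copy mean (-0.27) and the median over positions (-0.25). Night against Day gained a call with the median gene (-0.28), and Day against Col0 with the median window (-0.44), the single-copy mean (-0.44) and the median gene (-0.27). Within stroma, sig2-2 of part 1 changed sign with these 3 scalings (0.047, 0.027 and 0.086), as did sig6-1 (0.066, 0.11 and 0.089). Day against Col0 lost its call with the covariate (-0.22). In part 2 sig2-2 lost it with the single-copy mean (0.35) and the compared groups alone (0.23).

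Counts of called bins under an alternative, here and above, are given without the share of all bins in the same fit. Such counts in sig2-2 of part 1 were 5 with the median window and 7 with the single-copy mean. In sig6-1 they were 1 with the median window and 2 with bins of 50 bp, in sig2-2 of part 2 they were 1 with the single-copy mean, and in Col0 of part 2 they were 1 with the median window and 2 with the single-copy mean. With windows of 150 bp the upstream ratio changed sign in sig2-2 of part 1 (0.052) and in Day (0.040). With medians over positions the ratio to rbcL changed sign in sig2-2 (-0.00704) and chlm (-0.00186) of part 2.

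The replicate block gave 6 called bins in sig2-2 of part 1, 1 in sig6-1, 4 in sig2-2 of part 2 and 6 in Col0 of part 2. Shares of all bins called with the block are not given here, so these counts cannot be read as particular to psbA. With the block the sig2-2 difference of ratios in part 2 was -0.30 and passed (p 0.00992), and the psaA ratio of Col0 in part 2 was 0.23 with an exact permutation p of 0.125. It changed no other call. Pairing did not hold in sig2-2, Night and Col0 of part 1, with lowest pair correlations of -0.45, -0.22 and -0.44, nor in sig2-2 of part 2, with 0.060.

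Leaving out each library gave these ranges. The membrane to stroma ratio of psbA was -0.0040 to 0.14 in sig2-2 of part 1, -0.013 to 0.066 in chl27, -0.034 to 0.068 in chlm and 0.17 to 0.25 in Col0 of part 2. The difference of ratios was -0.58 to -0.42 for Night against Day, -0.028 to 0.13 for Day against Col0 and -0.34 to -0.25 for sig2-2 of part 2. Within membrane of part 1 the range was -0.36 to -0.24 for sig2-2, -0.31 to -0.26 for sig6-1, -0.27 to -0.11 for Night against Day and -0.27 to -0.12 for Day against Col0. Within stroma it was -0.051 to 0.051 for sig2-2 of part 1, -0.064 to 0.010 for sig6-1, -0.29 to -0.18 for Day against Col0 and 0.18 to 0.27 for sig2-2 of part 2. Called bins were 0 to 6 in sig2-2 of part 1, 4 to 9 in Day and 0 to 4 in sig2-2 of part 2. The upstream ratio was -0.44 to 0.27 in sig2-2 of part 1, 0.27 to 0.71 in sig2-2 of part 2 and -0.018 to 0.17 in Col0 of part 2. The downstream ratio was -0.85 to 0.0030 in sig2-2 of part 1, -0.19 to 0.30 in sig6-1, -0.49 to -0.22 in Day and -0.028 to 0.58 in chl27. The ratio to psaA was -0.0099 to 0.037 in sig2-2 of part 2 and 0.090 to 0.14 in chl27. The ratio to rbcL was -0.023 to 0.053 in Night, -0.045 to 0.078 in sig2-2 of part 2 and -0.0031 to 0.067 in Col0 of part 2.

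Mean depth over psbA was at least 96.8 in each library, and the deposited coverage gives no fragment count, so replicate spread over 3 or 4 libraries is the error behind every value. In part 2 membrane libraries were shallower than all stroma libraries, except sig2-2 membrane replicate 4. With 3 against 3 an exact test cannot go below 0.1. Fits over all libraries of a part assume 1 spread for all its groups.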
